A study of Rattus norvegicus with 12 samples.

Results

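The antigen processing and immunoproteasome genes make and carry the peptides that cells display on major histocompatibility complex (MHC) class I molecules. The 10 genes taken were the immunoproteasome subunits Psmb8, Psmb9 and Psmb10, the proteasome activator subunits Psme1 and Psme2, the peptide transporter genes Tap1 and Tap2, tapasin (Tapbp), the class I light chain B2m and the class I transactivator Nlrc5. Every probe that was no control and bore one of these names was taken. Of the 10 genes, 9 were found, each with 1 probe, among 30367 probes with 26514 gene names, and no probe bore the name Nlrc5.

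Colonic tissue of male Wistar rats was measured on arrays of 1 colour (Cy3), 1 array per rat. Group C comprised 4 rats that stayed with the dam and were gavaged with placebo (100 µL saline). Group M comprised 4 rats that underwent neonatal maternal separation (NMS), a stress of early life used as a model of irritable bowel syndrome, for 180 min a day from day 2 to day 14, and received placebo. Group D comprised 4 rats that underwent the same NMS and received VSL#3, a mixture of probiotic bacteria, in 100 µL saline, at a dose that the labels and the methods of the study state differently. Gavage ran from day 3 to day 60 in all groups, all rats underwent colorectal distension (CRD), and the colon was collected on day 60. No litter is given for any rat, so p values measure the spread between rats whose relatedness is unknown. The comparison of Group M vs Group C addresses the effect of NMS, and that of Group D vs Group M the effect of VSL#3 in rats with NMS.

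Proteasomes cut proteins of the cell into peptides. When interferon gamma acts on a cell, the inducible subunits Psmb8, Psmb9 and Psmb10 take the place of the catalytic subunits Psmb5, Psmb6 and Psmb7 in newly built particles, and Psme1 and Psme2 form a ring that opens the particle. Tap1 and Tap2 pair to pump the peptides into the endoplasmic reticulum, where tapasin holds the class I molecule near the pump until a peptide is bound. Cells of the immune system carry immunoproteasomes at rest, and other cells, among them the epithelium of the gut, gain them on inflammation.

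Some of the probes that carry the main results are shown first, because each value below is the brightness of such a probe of 60 bases. Those of Psmb8, Psmb9 and Tap1 hold at least 1 reading frame with no stop, as do those of Tap2, Psme1, Psme2 and Tapbp, which are not shown. Those shown are written 5′ to 3′ as the files give them, in lower case throughout since no part of them is marked.
Psmb8: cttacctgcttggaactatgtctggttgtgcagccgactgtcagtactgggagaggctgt
Psmb9: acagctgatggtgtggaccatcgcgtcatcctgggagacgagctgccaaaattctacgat
Tap1: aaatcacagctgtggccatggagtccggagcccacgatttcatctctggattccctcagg
The files place them on the rn4 build of the rat genome, Psmb8 at chr20:4787980-4788039 (minus strand), Psmb9 at chr20:4806341-4806400 (plus strand) and Tap1 at chr20:4793943-4794002 (minus strand). The probe of Tap2 lies beside them at chr20:4770555-4770614 (minus strand). These 4 genes are neighbours in the class II region of the rat MHC, which is called RT1. Tapbp lies farther along the same chromosome, at chr20:5111712-5111882, and the others lie elsewhere, Psme1 and Psme2 on chromosome 15, Psmb10 on chromosome 19 and B2m on chromosome 3.

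Promoters of most of the genes hold the letters of an interferon-stimulated response element, the site at which interferon regulatory factors bind. In the RefSeq windows from 250 bases before to 50 bases after the start of each gene (GRCr8 build), its core (GAAA, any 2 bases, then GAAA) was searched on both strands, and 7 of the 9 genes held it, beside 3.92% of all 33469 windows of the same length. Psmb9 and Psme1 held no match in this window. The core of the gamma-activated site, TTCNNNGAA, which reads the same on both strands, was found in the window of Psmb8 alone among the 9, beside 8.87% of all windows. The matches are shown because they are the sequence that these genes share, in capitals, with up to 10 bases on each side, on the strand of the gene.
Tap2: gcagcgaagtGAAAGCGAAAgcccgggacc
Tap1: cggtggctgcTTTCGGTTTCttcttcctct
Psmb8: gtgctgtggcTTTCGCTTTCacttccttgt
Psme2: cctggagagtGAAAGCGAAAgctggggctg
Psmb10: agtggggggtGAAAGCGAAAgtaggaagcg
Tapbp: gagggaaaatGAAAGTGAAAggaaacagac
B2m: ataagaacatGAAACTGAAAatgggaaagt
The windows lie at chr20:4652318-4652347 (Tap2, minus), chr20:4668645-4668674 (Tap1, minus), chr20:4657016-4657045 (Psmb8, minus), chr15:33052785-33052814 (Psme2, minus), chr19:50743290-50743319 (Psmb10, minus), chr20:4967878-4967907 (Tapbp, minus) and chr3:129549170-129549199 (B2m, plus). Psmb10 and Tapbp each held 2 matches, of which 1 is shown, and those of Tapbp overlap. In Tap1 and Psmb8 the match runs on the opposite strand. The starts of Tap1 and Psmb9 face away from each other with 457 bases between them, and the match shown for Tap1 lies in that interval. The letters are a description of the windows, and no binding was measured.

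All 9 probes were well above background on 12 of 12 arrays and saturated on 0. A level is given as the log2 of the signal relative to the 75th percentile of the same array. Thus 0 is the brightness below which 75% of the spots of that array that are no controls lie. Levels of different probes depend on the probe and are not compared. The methods of the study analysed 11 arrays, with rats D9 to D11 in Group D, and the comparisons here follow them. Rat D12 is given beside them. Signals were even over the 12 arrays, with a 75th percentile of 1433.9 to 1953.3 and 75.48 to 77.47% of spots well above background. Groups C and M were hybridised on 1 slide and Group D on the second slide, so that slide and group cannot be told apart for Group D.

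The rats differed in the level of leukocyte genes, which is given before the comparisons. The summed level of 3 genes of all leukocytes (Ptprc, Coro1a and Laptm5, given as a multiple of the 75th percentile) was 7.82, 29, 7.51 and 9.12 in rats C1 to C4. It was 42, 7.92, 28.2 and 31.5 in M5 to M8, 6.66, 9.6 and 9.93 in D9 to D11, and 59.8 in D12. Thus C2 stood above the other rats of Group C, M6 below the other rats of Group M, and D12 above all. For 12 genes of T and NK cells the summed levels ran from 0.984 to 6.08 in Group C, from 1.06 to 5.51 in Group M and from 1.05 to 1.69 in D9 to D11, and stood at 11.4 in D12, and 1 of the 12, Ncr1, was well above background on no array. For 3 genes of B cells the summed levels ran from 0.216 (C1) to 5.35 (C2) in Group C and from 0.279 (M6) to 8.08 (M5) in Group M. They ran from 0.117 to 0.612 in D9 to D11 and stood at 13.7 in D12. For 7 genes of macrophages and monocytes the ranges were 7.53 to 9.44, 9.45 to 12.6 and 8.56 to 9.68, with 11.6 in D12. No gene of these lists passed limma's adjusted threshold in any comparison. The 9 epithelial genes exceeded background clearly on each of the 12 arrays, with summed levels of 183 to 226 in Group C, 200 to 329 in Group M and 196 to 268 in D9 to D11. Taken singly, 5 of the 9 had a higher and 4 a lower mean in Group M than in Group C. In tissue such as this, fewer cells of a type and less RNA per cell cannot be told apart.

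In the colon of NMS rats, the 4 genes of the class II region had higher mean levels than in control rats, by 1.49- to 1.93-fold, while the other 5 genes differed by a log2 of -0.19 to 0.10. None of the 9 passed the threshold of limma, an adjusted p of at most 0.05 over all probes. None passed the criterion of the study's methods either, which asks for a 2-fold change together with unadjusted p values of at most 0.05 in both an analysis of variance and Tukey's test. Of all probes, 0.204% passed the first and 2.31% the second. At an unadjusted p of at most 0.05, 3 genes passed limma (Psmb9, Tap1 and Tap2), all of them higher in Group M, where 22.7% of all probes passed in either direction and 10% as higher. The median difference over the 9 genes was 0.10 on the log2 scale, and that over all probes was -0.01. The 4 genes were set apart from the other 5 after their values were seen.

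**Figure D1:**
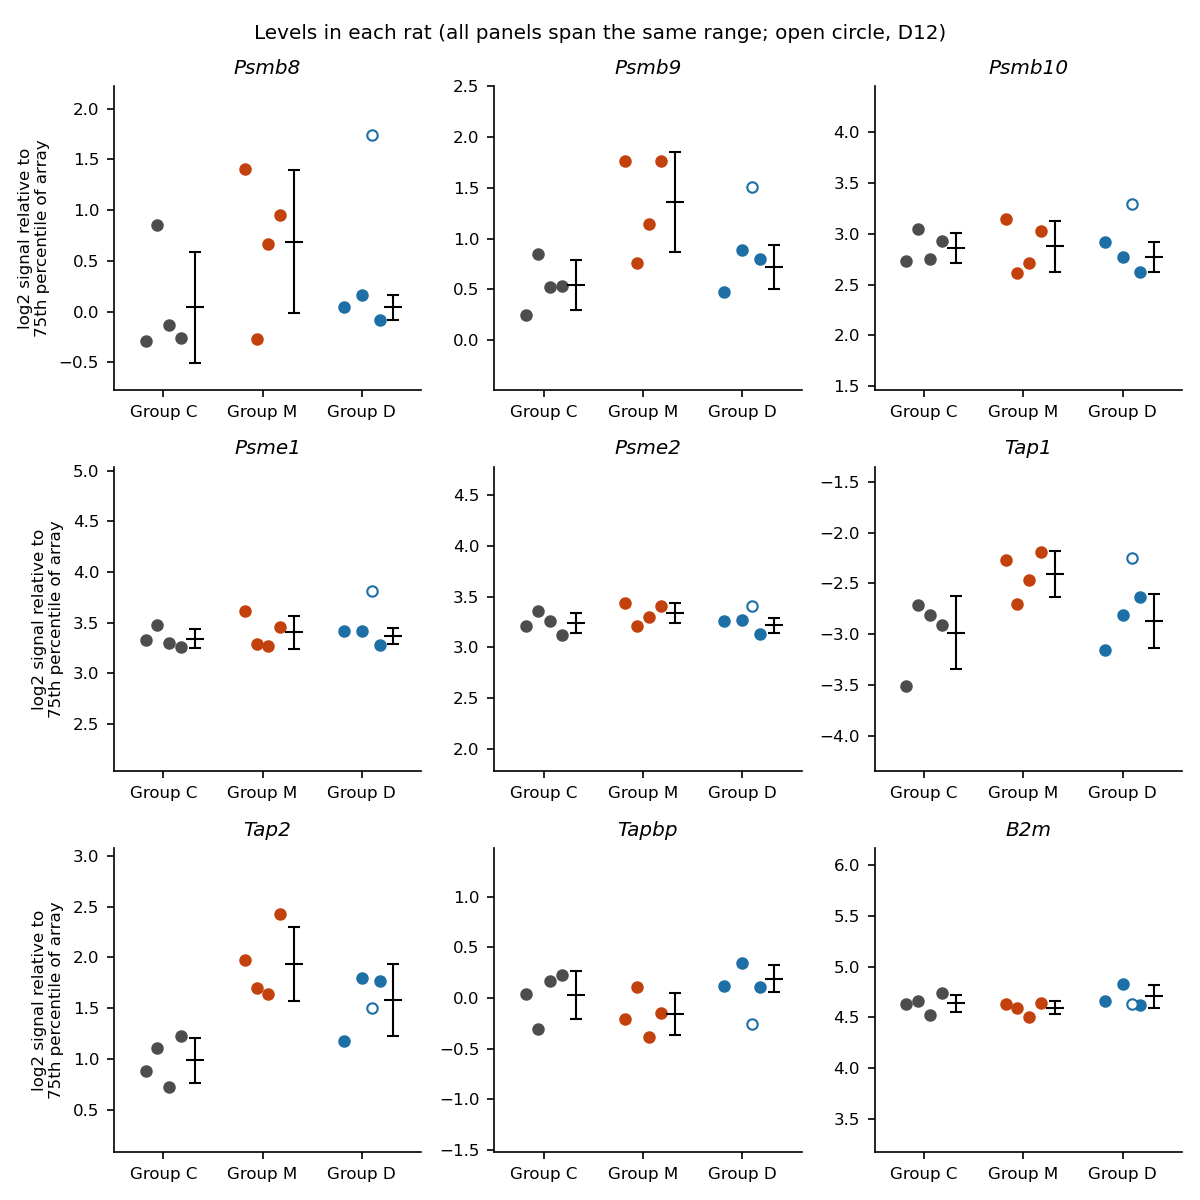
Each panel plots the level of 1 gene (log2 of the signal relative to the 75th percentile of the array) in each rat of Groups C, M and D, with the mean and SD of 4, 4 and 3 rats at the right of each group and rat D12 as an open circle outside them. Tap1 and Tap2 are higher in all 4 rats of Group M than in all 4 of Group C, whereas Psmb8 is high in C2 and low in M6, against the other rats of their groups.

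Peptide production comes first. Psmb8, the inducible subunit with chymotrypsin-like activity, had levels of -0.29, 0.86, -0.13 and -0.26 in C1 to C4, of 1.41, -0.27, 0.67 and 0.95 in M5 to M8, of 0.04, 0.17 and -0.08 in D9 to D11, and of 1.74 in D12. It was high in C2, M5, M7, M8 and D12 and low in the other 7 rats, and the groups overlap. These are also the rats in which the leukocyte genes were high, and the part of leukocytes in the level of Psmb8 was not tested. Group M exceeded Group C by 0.65 (SE 0.35, 95% CI -0.14 to 1.43, limma's adjusted p = 0.305) and Group D lay -0.65 from Group M (SE 0.38, 95% CI -1.49 to 0.20, adjusted p = 0.355).

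Psmb9 replaces Psmb6, the subunit with caspase-like activity, in the inducible particle. Its levels were 0.25, 0.85, 0.53 and 0.53 in Group C, 1.76, 0.76, 1.15 and 1.76 in Group M, 0.48, 0.89 and 0.80 in D9 to D11, and 1.51 in D12. Group M overlapped with Group C through 1 rat, M6, which lay below C2. The difference of Group M vs Group C was 0.82 (SE 0.23, 95% CI 0.30 to 1.34, adjusted p = 0.112), and that of Group D vs Group M was -0.64 (SE 0.25, 95% CI -1.20 to -0.08, adjusted p = 0.184).

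Psmb10 replaces Psmb7, the subunit with trypsin-like activity. Its levels ran from 2.73 to 3.04 in Group C, from 2.62 to 3.15 in Group M and from 2.62 to 2.92 in D9 to D11, with 3.30 in D12. The difference of Group M vs Group C was 0.01 (SE 0.14, 95% CI -0.30 to 0.32, adjusted p = 0.974). Unlike Psmb8 and Psmb9, Psmb10 lies outside the RT1 region.

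The activator subunits varied least between the rats among the genes of peptide production. Psme1 lay between 3.26 and 3.48 in Group C, between 3.27 and 3.62 in Group M and between 3.28 and 3.42 in D9 to D11, and Psme2 between 3.12 and 3.35, 3.21 and 3.43, and 3.13 and 3.26. Group M vs Group C gave 0.07 for Psme1 (SE 0.10, 95% CI -0.16 to 0.29, adjusted p = 0.76) and 0.10 for Psme2 (SE 0.09, 95% CI -0.10 to 0.30, adjusted p = 0.534). The probe of Psme2 also lists 2 predicted transcripts, from which its signal cannot be told apart.

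Among the transporter genes, Tap2 gave the largest difference of the 9 in Group M vs Group C. Its levels were 0.88, 1.11, 0.73 and 1.22 in Group C, 1.97, 1.70, 1.64 and 2.43 in Group M, 1.17, 1.80 and 1.77 in D9 to D11, and 1.504 in D12. All 4 rats of Group M lay above all 4 of Group C, M6 among them, and D12 lay below all 4 rats of Group M. The mean of Group M was 1.93-fold that of Group C (log2 difference 0.95, SE 0.21, 95% CI 0.48 to 1.41, limma's adjusted p = 0.0908). In Group D vs Group M the difference was -0.35 (SE 0.23, 95% CI -0.86 to 0.15, adjusted p = 0.394).

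Tap1, the partner of Tap2, had a dim probe, with levels of -3.51, -2.71, -2.81 and -2.91 in Group C, -2.27, -2.71, -2.47 and -2.19 in Group M, -3.16, -2.82 and -2.63 in D9 to D11, and -2.25 in D12. Group M lay above Group C without overlap, although M6 and C2 were nearly level. The difference was 0.58 (SE 0.20, 95% CI 0.14 to 1.01, adjusted p = 0.138), and that of Group D vs Group M was -0.46 (SE 0.21, 95% CI -0.93 to 0.01, adjusted p = 0.243). In Tap1 and Tap2 alone, 2 of the 9 genes, Group M lay wholly above Group C, as it did for 4.18% of all probes.

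Peptide loading and the light chain come next. Tapbp, which bridges the transporter and the class I molecule, had levels of 0.04, -0.30, 0.16 and 0.23 in Group C, -0.21, 0.11, -0.39 and -0.15 in Group M, 0.12, 0.34 and 0.10 in D9 to D11, and -0.26 in D12. It was low in C2, M5, M7, M8 and D12, the rats in which Psmb8 and the leukocyte genes were high. Group M vs Group C gave -0.19 (SE 0.14, 95% CI -0.51 to 0.13, adjusted p = 0.468), and Group D vs Group M 0.35 (SE 0.16, 95% CI 0.00 to 0.69, adjusted p = 0.229). B2m, one of the bright probes of the array, lay between 4.53 and 4.74 in Group C, 4.51 and 4.65 in Group M and 4.62 and 4.83 in D9 to D11, and Group M vs Group C gave -0.04 (SE 0.09, 95% CI -0.24 to 0.15, adjusted p = 0.821).

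**Figure D2:**
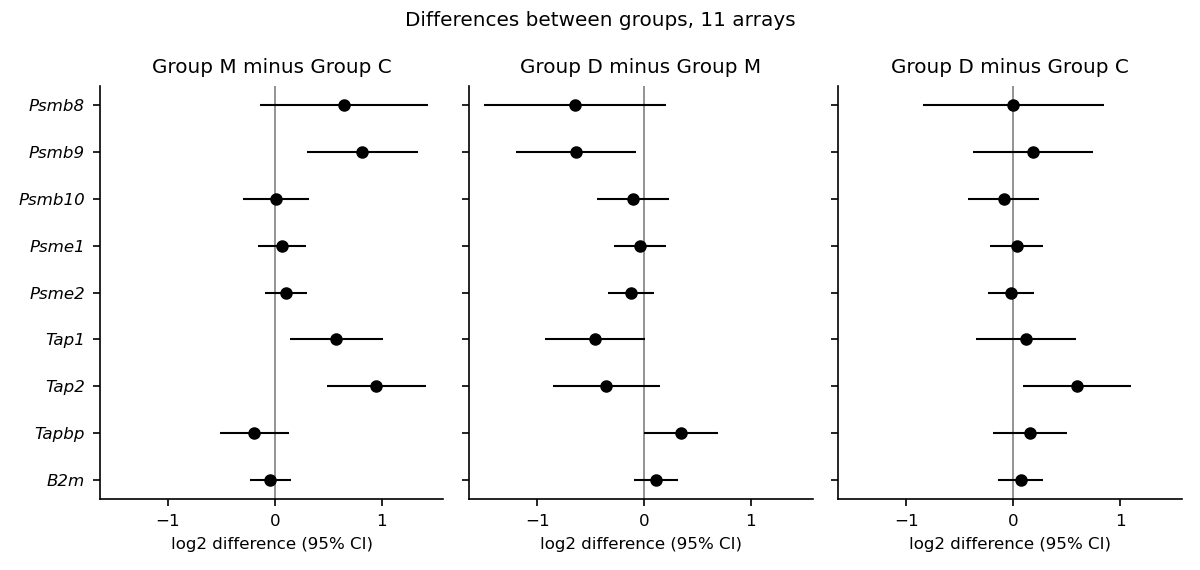
The log2 difference between group means is plotted for each of the 9 genes in the 3 comparisons, with its 95% confidence interval by limma (11 arrays, 1 model). The intervals of Psmb9, Tap1 and Tap2 lie above 0 in Group M minus Group C, and that of Tap2 in Group D minus Group C as well. In Group D minus Group M the interval of Psmb9 lies below 0 and that of Tapbp just above it. None of the differences passed the threshold after adjustment over all probes.

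In rats given VSL#3 the mean levels of the 4 class II region genes were lower than in Group M, by a log2 of -0.65 to -0.35, while the other 5 genes differed by -0.12 to 0.35. None of the 9 genes passed limma's adjusted threshold or the criterion of the methods in Group D vs Group M, which 0.171% and 2.66% of all probes passed. At an unadjusted p of at most 0.05, Psmb9 (lower) and Tapbp (higher) passed, as did 21.6% of all probes. The median over the 9 genes was -0.12, and that over all probes 0.01. Both comparisons use Group M, so a high value in that group moves them in opposite directions. With D12 added to Group D the difference of Psmb8 was -0.22 (adjusted p = 0.885) in place of -0.65, that of Psmb9 -0.44 (adjusted p = 0.535) and that of Tap1 -0.30 (adjusted p = 0.601), while Tap2 gave -0.37 (adjusted p = 0.482).

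In Group D vs Group C, none of the 9 genes passed limma's adjusted threshold or the criterion, which 0.00659% and 0.369% of all probes passed, and 1 gene, Tap2, passed at an unadjusted p of at most 0.05, as did 5.97% of all probes. Tap2 was 0.59 higher in Group D (SE 0.23, 95% CI 0.09 to 1.097, adjusted p = 0.778), with D9 inside and D10 and D11 above the range of Group C. The order of the mean levels of Tap2 was therefore Group M (1.93), Group D (1.58) and Group C (0.98), and no neighbours in it differed past the adjusted threshold. For Psmb8 the means of Group D (0.04) and Group C (0.04) were equal to the second decimal, with a 95% CI of -0.85 to 0.85 for their difference. The remaining 7 genes differed by -0.09 to 0.18.

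The calls for Group M vs Group C depended on which rats were taken. Without M6, the rat of Group M with few leukocyte transcripts, limma called 3 of the 9 genes at its adjusted threshold, Psmb8 (0.97, adjusted p = 0.049), Psmb9 (1.02, adjusted p = 0.0149) and Tap2 (1.03, adjusted p = 0.0206), and Psmb9 alone in Group D vs Group M (-0.84, adjusted p = 0.0317). The calls of all probes also became many more without M6, 16.2% of them in the first comparison and 14.8% in the second. The criterion of the methods then held for Psmb9 and Tap2 in Group M vs Group C, as it did for 5.84% of all probes. For Tap2 it held also without C4 (1.03, with 1.52% of all probes) or without M7 (1.05, with 1.16%). Without C2, the rat of Group C with many leukocyte transcripts, none of the 9 genes and 0.244% of all probes were called, and Psmb8 gave 0.92 (adjusted p = 0.123) and Tap2 0.99 (adjusted p = 0.079). When the arrays were weighted by their quality as limma estimates it, Psmb8, Psmb9, Tap1 and Tap2 were called in Group M vs Group C, beside 28.3% of all probes. The calls of that fit for Group D vs Group M were Psmb8, Psmb9 and Tap2, beside 22.7% of all probes. In that fit M8, the rat with the highest levels of Psmb9, Tap1 and Tap2, had a weight of 4.71 and M6 one of 0.365.

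**Figure D3:**
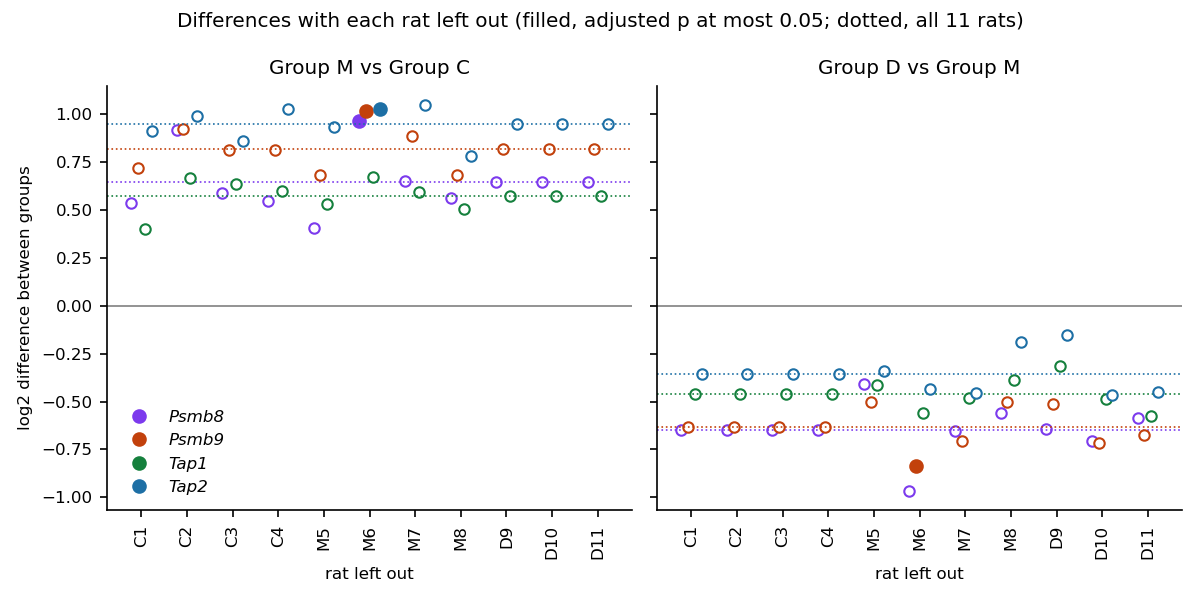
The log2 differences of Psmb8, Psmb9, Tap1 and Tap2 are plotted with each of 11 rats left out in turn (x axis), for Group M vs Group C on the left and Group D vs Group M on the right. Filled circles mark an adjusted p of at most 0.05 and dotted lines the value with all 11 rats. Filled circles appear only where M6 is left out.

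**Figure D4:**
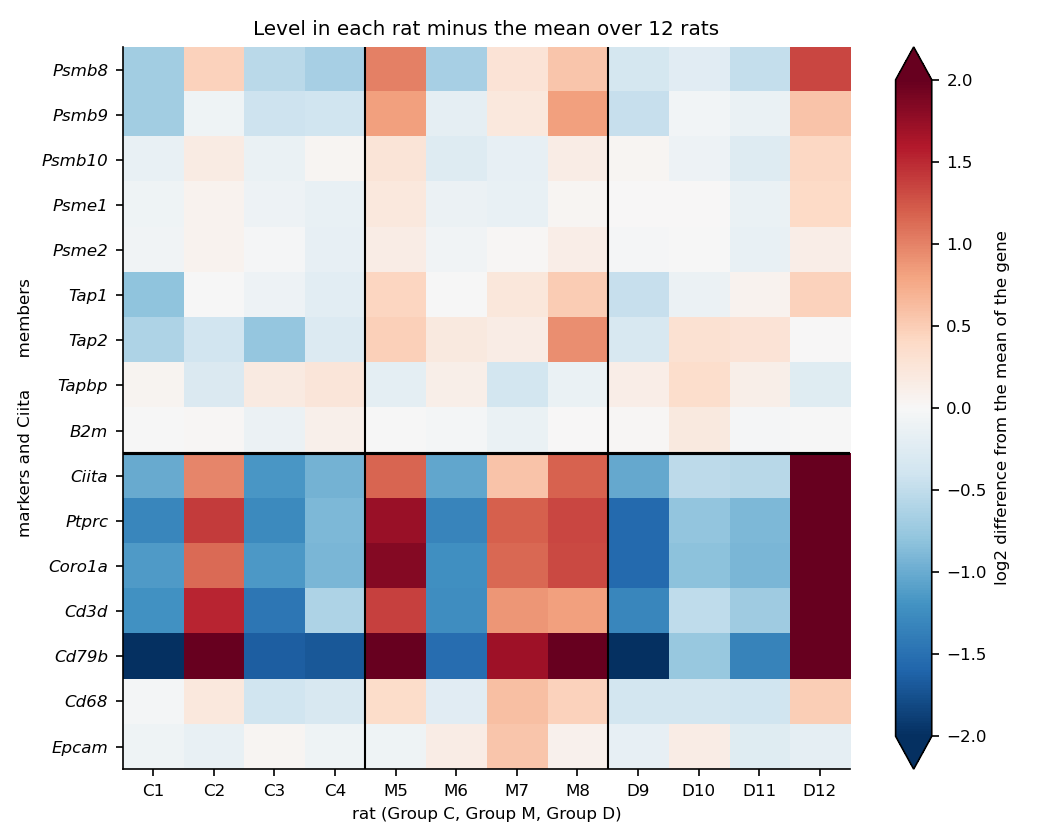
Colours show the log2 level of each gene in each rat minus the mean of that gene over 12 rats, with the 9 genes above the line and Ciita and markers of leukocytes (Ptprc, Coro1a), T cells (Cd3d), B cells (Cd79b), macrophages (Cd68) and epithelium (Epcam) below it. The markers drawn are a part of their lists, and each had a higher mean in Group M than in Group C. Lower means were found for 1 of 12 T and NK cell genes, 2 of 7 macrophage and monocyte genes and 4 of 9 epithelial genes. Values beyond the ends of the scale take its end colours. C2, M5, M7, M8 and D12 are red for Psmb8, Ciita and the lymphocyte markers, and Tapbp is blue in the same rats.

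No probe reported on Nlrc5, which drives class I genes and the genes of this pathway. Its relative Ciita, the master regulator of class II genes, had levels of -3.46, -1.46, -3.61 and -3.38 in Group C, -1.28, -3.48, -1.87 and -1.27 in Group M, -3.47, -2.97 and -2.9998 in D9 to D11, and -0.05 in D12. The rats with high Ciita were those with high Psmb8 and high leukocyte genes. Group M vs Group C gave 1.003 (SE 0.57, adjusted p = 0.327) and Group D vs Group M -1.17 (SE 0.62, adjusted p = 0.301). Together with 7 subunits of the factors that hold Ciita and Nlrc5 on promoters (Rfx5, Rfxap, Rfxank, Nfya, Nfyb, Nfyc and Creb1), 8 of 8 such genes were measured, 3 with a higher and 5 with a lower mean in Group M than in Group C, and none passed limma's adjusted threshold. At an unadjusted p of at most 0.05, 1 was higher (Nfyb, 0.40) and 1 lower (Rfxank, -0.36), 2 of 8 where 22.7% of all probes passed in either direction.

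Interferon gamma induces most of the 9 genes, and the genes of its signal were read beside them. Ifng itself was well above background on 0 of 12 arrays. Of the other 11 genes, 7 had a higher and 4 a lower mean in Group M than in Group C, with a median difference of 0.21, and none passed limma's adjusted threshold or the criterion. At an unadjusted p of at most 0.05, 4 were higher and 1 lower, beside 10% of all probes that were higher and 22.7% in either direction. Irf1, a transcription factor that the signal induces, gave 0.21 (SE 0.14, adjusted p = 0.399). Jak2, a kinase of the receptor, gave 0.56 (SE 0.18, adjusted p = 0.125) and Socs1, an inhibitor of it, 1.05 (SE 0.43, adjusted p = 0.186). In Group D vs Group M the median was -0.21 and Irf1 gave -0.08 (adjusted p = 0.81).

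The constitutive counterparts of the inducible subunits were measured beside them. The level of Psmb5 was 2.48 ± 0.05 in the control rats and 2.55 ± 0.01 in the NMS rats (SD, n = 4 each), which differ by 0.07 (SE 0.07, limma's adjusted p = 0.587). For Psmb6 the difference was 0.27 (SE 0.10, adjusted p = 0.152) and for Psmb7 0.14 (SE 0.11, adjusted p = 0.492). Taken within each array, Psmb8 minus Psmb5 had a mean of -2.44 in Group C and of -1.86 in Group M, 0.57 apart (exact two-sided permutation test over rats, p = 0.3429). Psmb9 minus Psmb6 differed by 0.55 (exact permutation p = 0.1143) and Psmb10 minus Psmb7 by -0.13 (exact permutation p = 0.4571). In Group D vs Group M the same quantities differed by -0.58, -0.37 and 0.21 (exact permutation p = 0.2286, 0.2857 and 0.2571). Adjusted over the 6 tests, p was 0.4115 to 0.4571, and the smallest p that either comparison allows is 0.02857.

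The remaining genes of the proteasome were read by their place in the particle. Of 11 subunits shared by both kinds of core particle, 11 had a higher mean in Group M than in Group C, with a median difference of 0.17 and a range of 0.02 to 0.79, and 5 of them passed as higher at an unadjusted p of at most 0.05, as did 10% of all probes. Psma2 gave the highest value, 0.79 (SE 0.17, adjusted p = 0.0895). The regulatory cap unfolds proteins and feeds them into the core. Of 21 genes of the cap and its assembly, 20 had a higher mean, with a median of 0.23. At an unadjusted p of at most 0.05, 10 of the 21 passed as higher, beside the same 10% of all probes. Psmd10, an assembly chaperone, was the one with a lower mean (-0.24). Of the same 21, 19 had a lower mean in Group D than in Group M (median -0.20), as had 11 of 11 shared core subunits (median -0.18). Of all 30367 probes, 14554 had a higher mean in Group M than in Group C, and 14641 a lower mean in Group D than in Group M. No gene of either list passed limma's adjusted threshold or the criterion of the methods in any comparison, and the medians over all probes were -0.01 and 0.01. Psmd9, a chaperone of cap assembly, came nearest in Group D vs Group M (-0.66, SE 0.16, adjusted p = 0.0926). M7 was the highest of the 12 rats in 6 of the 11 core genes and in 15 of the 21 cap genes. It also had the highest summed levels of 4 neutrophil genes (3.59, beside at most 0.547 in the other rats) and of the 9 epithelial genes (329). Single genes of these lists differed. M7 was the highest rat for Krt18 (6.54), S100a8, S100a9 and Csf3r, the last well above background on only 3 arrays. Vil1 (1.11 in M7), Cdx2 (2.43 in M7) and Mpo (-6.65 in M7) were highest in C3, D9 and D10. The part of neutrophils and epithelium in the values of the proteasome genes was not tested. Without M7, 11 of 11 and 20 of 21 genes still had higher means in Group M than in Group C, with medians of 0.15 and 0.18, but 3 and 5 of them passed as higher at an unadjusted p of at most 0.05, where 7.36% of all probes did.

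Of 7 other activators, inhibitors and assembly factors measured, 2 had a higher and 5 a lower mean in Group M than in Group C, with a median of -0.11. Psme3, which forms a second activator ring found in the nucleus, gave 0.54 (SE 0.14, adjusted p = 0.105). Its levels were higher in all 4 rats of Group M than in all 4 of Group C, as were those of 4.18% of all probes. Pomp, which helps the core particle to assemble, gave 0.13 (adjusted p = 0.429).

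**Figure D5:**
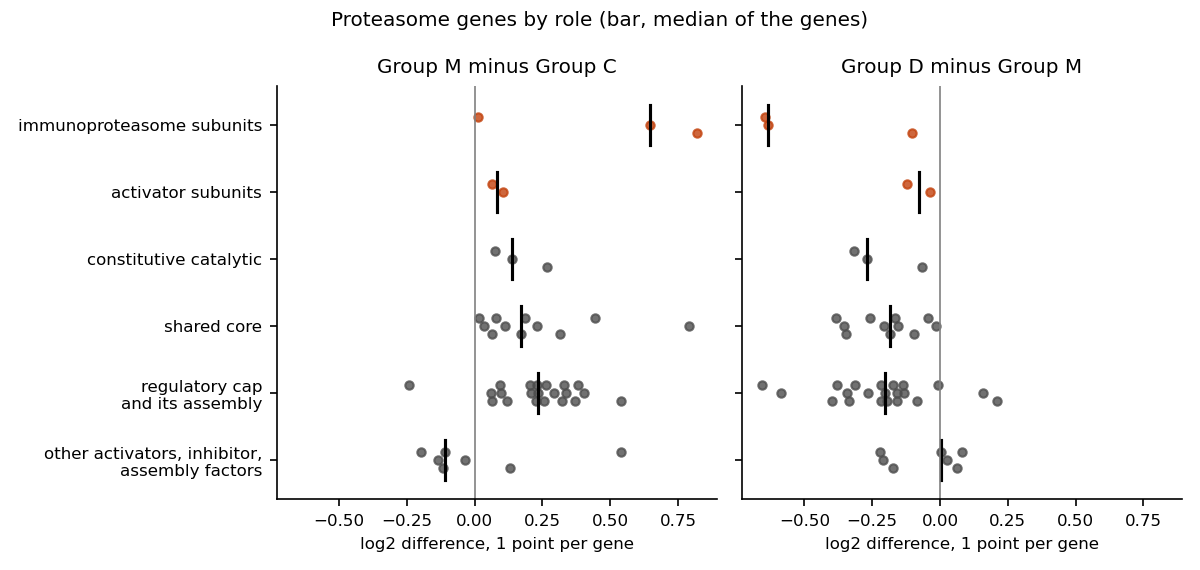
Each point is the log2 difference between group means of 1 proteasome gene (x axis), grouped by role (y axis), for Group M minus Group C and Group D minus Group M, with the median of each role as a bar. In Group M minus Group C the 11 shared core subunits lie between 0.02 and 0.79, and Psmb8 (0.65) and Psmb9 (0.82) stand apart from Psmb10 (0.01) and the activator subunits.

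Of 7 chaperones and trimming enzymes of the endoplasmic reticulum and cytosol, 4 had a higher and 3 a lower mean in Group M than in Group C. Tapbpl, a relative of tapasin that edits peptides on class I molecules, had levels of -3.56, -3.44, -3.12 and -3.37 in Group C, -4.77, -3.18, -5.16 and -4.95 in Group M, and -3.62, -3.46 and -3.35 in D9 to D11, with -3.11 in D12. It was low in M5, M7 and M8 and not in C2 or D12, which had high leukocyte genes too. The probe of Tapbpl was dim, with 1 spot on each array, and the part of leukocytes in its level was not tested. Group M lay -1.14 from Group C (SE 0.36, adjusted p = 0.126). Erap1, the aminopeptidase that trims peptides after transport, gave -0.35 (SE 0.10, adjusted p = 0.11). Its 4 levels in NMS rats lay below the 4 in control rats without overlap, as did those of 5.04% of all probes, and in Group D vs Group M it gave 0.27 (adjusted p = 0.178). Calr, a chaperone of the class I chain, gave 0.30 (adjusted p = 0.626) and -0.91 (adjusted p = 0.178) in the 2 comparisons.

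The pattern of the 9 genes over the rats, taken as the mean of their levels after each was centred, was highest in M5 (0.35), D12 (0.34) and M8 (0.33) and lowest in C1 (-0.34). Levels were not scaled, so genes with a wide range over the 12 rats (Psmb8, 2.03) weigh more than those with a narrow one (Psme2, 0.32). Among 13984 probes compared with this pattern over 12 rats, those with the highest Pearson correlation belonged to RT1-DMa (r = 0.93) and RT1-DMb (r = 0.92), which load peptides on class II molecules. They were followed by Dnajc9, RT1-DOb, Nfkbil2, Tmem138, Aurkb and H2afz, with r from 0.92 to 0.91. RT1-DOb, whose product restrains RT1-DM in B cells, differed by 1.81 in Group M vs Group C and by -1.93 in Group D vs Group M, in log2 units. These correlations describe 12 rats that share 2 slides and the difference in leukocyte genes given above.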

How the data were processed

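Arrays of 12 rats (62976 spots each, Agilent 8x60K, 1 colour) entered the analysis. The deposited intensities are, per the file headers, the scanner software's processed signal, with background subtracted, on a linear scale. The authors' matrix holds quantile normalized log2 values and served as an alternative. After control spots (4259) had been removed, each log2 intensity was expressed relative to the 75th percentile of the array's other spots. Spots marked as outliers were then removed, and replicate spots were averaged per probe. A value was missing on 1 array or more for 19 of 30367 probes. The number of arrays limits the precision.

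One limma model (version 3.58.1, R 4.3.3, lmFit with eBayes) held the 3 groups on 11 arrays, and p values were adjusted by Benjamini-Hochberg across all probes, with a threshold of 0.05. The study's own criterion was computed on the same values. Pairs of subunits were compared by an exact permutation test over rats. The fits were tested on simulated data. Genes named are all 10 members, lists of pathway genes and cell type markers (for each gene its brightest probe on average), and the 8 genes most like the members. Some genes of these lists are not reported here by name. Members and lists were chosen with earlier results of these data known. Promoter windows are those of RefSeq (GRCr8), and probe positions those of the files (rn4). All 9 measured members had a promoter window. Figures were drawn with matplotlib 3.10.9 under Python 3.11.15.

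Alternatives were to include D12, to correct background by normexp (offset 50), to normalize by quantiles, by the array median or as in the authors' matrix, to retain outlier spots, to test bright probes alone (21574 that were well above background in a whole group), to block on the replicate number, to weight arrays by quality, to model the compared groups without the other, to move the threshold, and to leave out each rat in turn.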

Additional observations from a re-analysis of the deposited data

Results flagged for a closer look

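Psmb8 in C2 stood at 0.86 (log2 relative to the 75th percentile), far from the other 3 rats of Group C, and Psmb8 in D12 stood at 1.74, far from the other 3 rats of Group D. These 2 were found among 27 sets of 4 rats searched (9 genes in 3 groups), and such a gap to the nearest rat is met by chance in about 1 in 20 sets. D12, which was left out of the main comparisons, exceeded all 4 rats of Group C in 7 of the 9 genes, as did M5, and in 25.8% of all probes (24.1% in M5), with Psmb8 at 1.74, Psmb9 at 1.51, Psmb10 at 3.30, Psme1 at 3.81, Psme2 at 3.41, Tap1 at -2.25 and Tap2 at 1.504. It also had the highest summed level of the leukocyte genes, 59.8, and the part of leukocytes in these values was not tested.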

How the results depend on the processing

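The counts of genes called depended on 3 choices. At an unadjusted p of at most 0.05, limma called 3, 2 and 1 genes in Group M vs Group C, Group D vs Group M and Group D vs Group C, and with array quality weights 4 and 3 in the first pair of comparisons, against 0 in the main fit. With each rat left out, 0 to 3 genes were called in Group M vs Group C and 0 to 1 in Group D vs Group M, and the criterion of the methods held for 0 to 2 in Group M vs Group C, the count above 0 by limma only without M6. Median differences of the members and differences of the subunit pairs kept their direction under every alternative in which they were recomputed. The numbers of the replicates do not pair the rats (r of same-numbered rats from -0.56 to 0.13 over all probes), and with the replicate number as a block 0 genes were called in each comparison, Tap2 with an adjusted p of 0.238 in Group M vs Group C. The block turned Psmb8 in Group D vs Group C to -0.0067 (adjusted p = 1). Other differences near 0 changed sign. With all 12 arrays, Psmb10 and Psme1 were 0.0277 and 0.0736 in Group D vs Group M, and Psmb10 and Psme2 0.0406 and 0.0281 in Group D vs Group C. With normexp, Psmb10 was -0.0066 in Group M vs Group C and Psmb8 -0.0039 in Group D vs Group C. With the median of each array, Psmb10 was -0.0272 in Group M vs Group C, Psme1 0.0491 in Group D vs Group M and Psme2 0.0253 in Group D vs Group C. Psme1 in Group D vs Group C was -0.0041 after quantile normalization and -0.003 in the authors' matrix. With each rat left out, Psmb10 ran from -0.077 to 0.0987 and Psme1 from -0.0047 to 0.1113 in Group M vs Group C, Psme1 from -0.0813 to 0.0347 in Group D vs Group M, and in Group D vs Group C Psmb8 from -0.11 to 0.27, Psme2 from -0.058 to 0.0242 and Tap1 from -0.0577 to 0.2624. Causes were not tested. The slide as a block could not be fitted, since Group D fills the second slide. Lists restricted to probes above background, and the proteasome lists without M7, were recounted after the data had been seen.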
